A study of Mus musculus with 32 samples.

Results

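The genes described here are 10 imprinted genes that act in fetal growth and lie outside the Kcnq1ot1 domain, the imprinted domain that borders Dhcr7: Igf2, H19, Dlk1, Meg3, Peg3, Plagl1, Mest, Ndn, Grb10 and Igf2r. They were chosen by symbol, and all 10 were found among the 55291 symbols of the count tables. The brains came from C57BL/6J mice, either WT (Dhcr7+/+) or KO (Dhcr7-/-), and were taken whole. The stages were PND0, the day of birth, and 3 embryonic days, E16.5, E14.5 and E12.5. Dhcr7 encodes the enzyme of a final step of cholesterol synthesis, and mice without it are a model of Smith-Lemli-Opitz syndrome. Each of the 8 groups held 4 libraries of mRNA, with 13.9 to 28.3 M counts each. The labels give no litter, no design of the Dhcr7 allele and no sex, so p-values measure the spread between these 4 brains per group.

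An imprinted gene is read mainly from the copy inherited from 1 parent. Paternally expressed genes such as Igf2, Dlk1, Peg3, Plagl1 and Mest are known mostly as promoters of fetal growth or of its regulation, and maternally expressed ones such as H19, Grb10 and Igf2r mostly as restraints on it. Several sit in shared control regions: Igf2 and H19 use common enhancers, and Dlk1 and Meg3 belong to the same cluster. In the brain, imprinted genes also have roles in neurons, and Ndn and Grb10 are read from the paternal copy there. All animals were of 1 inbred strain, so the counts do not separate the parental copies.

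On the GRCm38 build, Igf2 (chr7:142650766-142666816, minus strand) and H19 (chr7:142575529-142578143, minus strand) lie 1156329 and 1245002 bp from Dhcr7 on the same chromosome. Ndn (chr7:62346569-62350262) and Peg3 (chr7:6703892-6730431) are also on chromosome 7, but 81472883 and 137092714 bp away. Dlk1 (chr12:109452823-109463336) and Meg3 (chr12:109541001-109571726) are neighbours on chromosome 12. Plagl1 is at chr10:13060504-13131694, Mest at chr6:30723547-30748465, Grb10 at chr11:11930508-12038683 and Igf2r at chr17:12682406-12769664. H19 and Meg3 are annotated as long intergenic non-coding RNAs and the other 8 as protein-coding. Annotated genes overlap 7 of the 10: Igf2os and Mir483 overlap Igf2, Airn overlaps Igf2r and Copg2 overlaps Mest, for example. The use of strand in counting is not given in the sources used here, so reads of such partners cannot be told apart. Dlk1, Peg3 and Grb10 have no overlapping gene.

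The promoter windows of Peg3, Dlk1 and Meg3 are shown because Peg3 was the member that changed in KO brains and Dlk1 and Meg3 moved in opposite directions during development. Each runs from 250 bases before to 50 bases after the RefSeq start site (GRCm38.p6), 5′ to 3′ on the gene's strand: chr7:6730370-6730669 (minus strand) for Peg3, chr12:109452573-109452872 (plus strand) for Dlk1 and chr12:109540746-109541045 (plus strand) for Meg3. Capitals mark matches to 4 motifs, searched on both strands and chosen with these windows in view.
Peg3: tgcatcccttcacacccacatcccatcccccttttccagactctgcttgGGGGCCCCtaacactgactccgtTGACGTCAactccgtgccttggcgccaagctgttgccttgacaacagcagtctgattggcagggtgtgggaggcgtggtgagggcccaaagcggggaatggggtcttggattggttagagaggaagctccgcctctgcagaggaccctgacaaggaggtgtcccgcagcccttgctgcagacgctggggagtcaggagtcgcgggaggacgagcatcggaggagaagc
Dlk1: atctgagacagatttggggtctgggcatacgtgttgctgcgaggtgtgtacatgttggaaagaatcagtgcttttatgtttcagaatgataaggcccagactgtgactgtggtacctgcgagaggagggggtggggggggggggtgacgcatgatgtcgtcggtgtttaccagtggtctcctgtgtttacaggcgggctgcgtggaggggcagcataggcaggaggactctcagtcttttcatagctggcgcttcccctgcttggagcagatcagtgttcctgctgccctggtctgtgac
Meg3: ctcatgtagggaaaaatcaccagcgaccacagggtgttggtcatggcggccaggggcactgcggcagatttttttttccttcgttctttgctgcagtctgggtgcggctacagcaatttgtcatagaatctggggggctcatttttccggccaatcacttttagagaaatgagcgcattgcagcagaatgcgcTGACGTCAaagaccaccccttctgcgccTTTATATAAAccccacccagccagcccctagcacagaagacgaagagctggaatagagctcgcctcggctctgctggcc
The Peg3 window holds GGGGCCCC, a form of the site that the protein of Plagl1 can bind, from base -201. It also holds the cAMP response element TGACGTCA from base -178, and Meg3 has the same element from base -57. The Meg3 window has TATAAA from base -25 and, on the other strand, from base -29, in 1 overlapping run of capitals. The Dlk1 window has no match to these letters or to GCCATNTT, the core of the YY1 site. Of the 32851 mouse promoter windows of this length, 1.08% hold GGGGCCCC, 1.79% TGACGTCA, 13.6% TATAAA and 6.05% GCCATNTT. Peg3 and Meg3 each have 13 CpG dinucleotides in the window and Dlk1 has 9, against a median of 7 over all windows. Meg3 has another RefSeq window, not shown, at chr12:109545148-109545447, with 1 CpG and 0 motif matches. Such matches describe the letters only.

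Dhcr7 itself, which checks the labels, ran from 11.4 to 26.7 CPM (counts relative to a library's total) in KO libraries and from 58.6 to 102 CPM in WT libraries, with no overlap at any stage. All 10 members passed the filter on low counts in every comparison. The 12 defining brain genes were detected at every stage. Their lowest sum at E12.5 was 2924 CPM, in WT replicate 1, against 3982 to 5180 CPM in the other 7 libraries. Before the results, 2 libraries at E12.5 stood apart. WT replicate 1 had the highest sums of markers of tissues around the brain: 140 CPM for skeletal muscle against 8.93 to 40.6 CPM in the other 7 libraries, 664 CPM for cartilage and bone against 265 to 364 CPM, and 3500 CPM for meninges and fibroblasts against 730 to 2854 CPM. KO replicate 1 had 5.64% of its counts on a ribosomal RNA gene, against 0.191% to 0.376% in the other 7 libraries. WT replicate 3, not among these 2, had the highest sum of blood markers, 9113 CPM against 1633 to 4927 CPM.

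In WT brains, 8 of the 10 genes fell between E12.5 and PND0, in a comparison where 36.4% of all genes did, and 2, Meg3 and Ndn, rose (34.5%). All 10 passed the test (edgeR's quasi-likelihood test, Benjamini-Hochberg adjusted p under 0.05), as did 70.9% of all genes. Over the single intervals 9 (57.8% of all genes), 7 (57.5%) and 6 (53.2%) of the 10 passed. From E12.5 to PND0 the falls ran from 2.02-fold for Igf2r to 6.79-fold for H19. The median log2 fold change of the 10 was -1.71, against -0.0467 over all genes tested. Without WT replicate 1 of E12.5 all 10 still passed, the falls ran from 1.76-fold for Igf2r to 5.34-fold for Grb10, and the median was -1.34. In all 10, the 4 PND0 libraries did not overlap the 4 E12.5 libraries, as in 67.8% of genes that averaged 1 CPM or more. Markers of several tissues other than brain were lower at PND0 as well. The median sum over the 4 WT libraries went from 2185 CPM at E12.5 to 671 CPM at PND0 for 12 meninges and fibroblast markers, and from 361 to 61.5 CPM for 10 of cartilage and bone. It went from 34.1 to 7.52 CPM for 10 markers of skeletal muscle, from 104 to 5.05 CPM for 8 of skin epithelium and from 4178 to 224 CPM for 10 of blood. None of these markers was at 0 in all WT libraries of E12.5, while Myf5 of muscle and Hbb-bh1 of blood were at PND0. The median WT sums rose for the 10 choroid plexus markers (168 to 574 CPM) and the 8 of pericytes (161 to 307 CPM). They also rose for the 10 of endothelium (299 to 385 CPM) and the 9 of microglia (84.7 to 109 CPM). The ribosomal RNA gene took 0.267% to 0.376% of counts in WT at E12.5 and 1.80% to 2.79% at PND0. The part of these tissues and of that share in the course of the 10 genes was not tested. Differences in RNA or library preparation between stages, if any, cannot be told apart from stage. In whole-brain libraries, fewer cells of a type and less RNA per cell cannot be told apart.

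**Figure D1:**
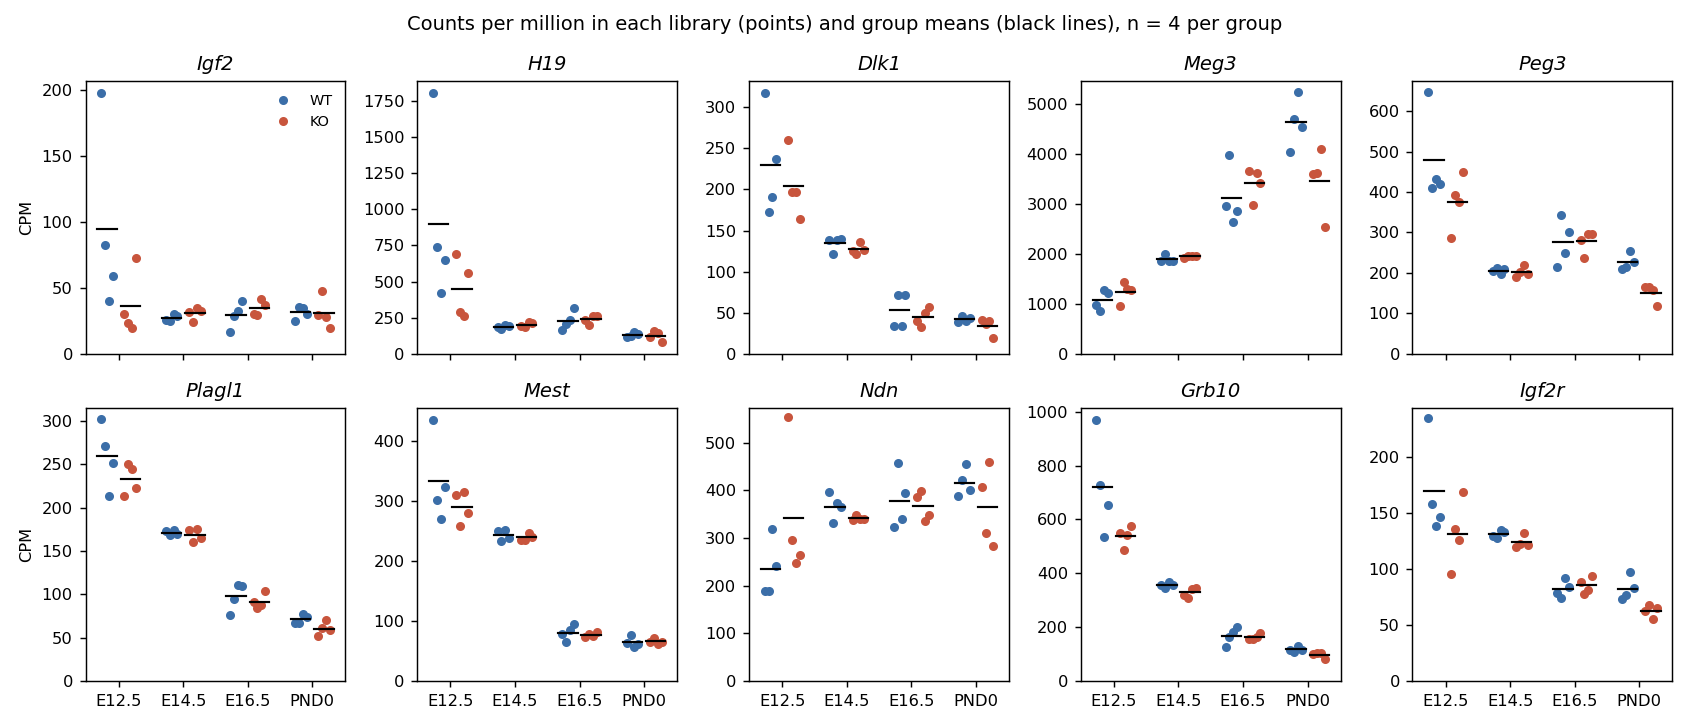
CPM (vertical axes, from 0) of the 10 genes in each library by stage; blue points are WT, red points KO and black lines group means (n = 4). Of the panels, 8 step down from E12.5 to PND0 and Meg3 and Ndn step up. The PND0 KO points of Peg3, Igf2r and Grb10 lie below all PND0 WT points.

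Of the genes of the insulin-like growth factor pathway, Igf2, the fetal growth factor, measured 197, 82.5, 40.1 and 59.0 CPM in WT replicates 1 to 4 at E12.5. At PND0 it measured 24.9, 35.2, 35.0 and 30.1 CPM. Replicate 1 at E12.5 was above every other library, and the other 3 were still above all PND0 values. The log2 fold change was -1.57 ± 0.41 (SE, adjusted p = 0.00559), and without single libraries it ran from -1.80 to -0.92, with an adjusted p of at most 0.0225. From E12.5 to E14.5 Igf2 fell by 1.83 on the log2 scale (adjusted p = 0.0105), or by 1.17 without WT replicate 1 of E12.5 (adjusted p = 0.00479). The means at E14.5, E16.5 and PND0 were 27.2 ± 2.52, 29.4 ± 9.89 and 31.3 ± 4.87 CPM (SD, n = 4). No pair of these 3 stages passed the test (adjusted p = 0.671 from E14.5 to E16.5, 0.841 from E16.5 to PND0 and 0.0755 from E14.5 to PND0). The first difference passed without WT replicate 1 of E16.5 (0.32, adjusted p = 0.0223). That from E14.5 to PND0, 0.23 with all 8 libraries, passed without WT replicate 1 of PND0 (0.32, adjusted p = 0.00945) and with the sex-gene covariate (0.32, adjusted p = 0.012).

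H19, a non-coding RNA made from the same chromosomal domain as Igf2, measured 1801, 738, 418 and 649 CPM in WT at E12.5 and 114, 122, 151 and 135 CPM at PND0. The log2 fold change was -2.76 ± 0.39 (adjusted p = 7.68e-05), beside -2.59 for Grb10 and -2.41 for Dlk1. Without WT replicate 1 of E12.5 the fall of H19 was smaller (-2.17, adjusted p = 3.09e-07), and those of Grb10 and Dlk1 were -2.42 and -2.21. From E16.5 to PND0 it fell by 0.85 (adjusted p = 0.00405). Its E14.5 and E16.5 levels, 188 ± 11.9 and 230 ± 64.0 CPM, did not differ beyond their spread (adjusted p = 0.211).

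Grb10, an adaptor protein that dampens insulin and IGF receptor signalling, stepped down at each interval. Its WT means were 721 ± 183, 356 ± 10.1, 169 ± 32.2 and 117 ± 9.01 CPM from E12.5 to PND0. Each step passed the test (adjusted p = 0.000731, 9.94e-05 and 0.00153). Igf2r, the receptor that takes up IGF2 and leads it to breakdown, had WT means of 170 ± 44.3, 131 ± 3.51, 82.1 ± 7.56 and 82.5 ± 10.7 CPM. From E14.5 to E16.5 Igf2r fell by 0.66 (adjusted p = 2.16e-07). Its first interval missed the threshold (-0.40, adjusted p = 0.0616) and passed it without WT replicate 1 of E12.5 (-0.18, adjusted p = 0.0108), where that gene measured 235 CPM. Its last 2 stages did not differ beyond their spread (adjusted p = 0.86).

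Of the zinc-finger transcription factors, Plagl1, which regulates other imprinted genes including Igf2 and H19 in known work, had WT means of 260 ± 37.4, 171 ± 2.83, 97.9 ± 16.2 and 71.3 ± 5.06 CPM. All 3 of its steps passed the test (adjusted p = 0.000387, 8.37e-05 and 0.00149). Peg3, which is known for roles in growth and maternal behaviour, followed another course. It measured 648, 411, 433 and 421 CPM in WT at E12.5, and 204, 211, 198 and 211 CPM at E14.5. The E16.5 libraries held 215, 343, 250 and 302 CPM, and at PND0 210, 214, 253 and 226 CPM. Peg3 thus fell by 1.24 over the first interval (adjusted p = 0.000145), rose by 0.45 over the second (adjusted p = 0.0147) and fell by 0.32 up to PND0 (adjusted p = 0.0398), with overlapping groups in the last. That last step missed the threshold without WT replicate 2 or 4 of E16.5 or replicate 1, 2 or 4 of PND0, where the highest adjusted p was 0.111.

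Dlk1, a membrane protein related to Notch ligands, and Meg3, a non-coding RNA of the same cluster, moved in opposite directions. Dlk1 measured 317, 173, 191 and 237 CPM in WT at E12.5 and 39.1, 46.2, 39.7 and 43.8 CPM at PND0 (log2 fold change -2.41 ± 0.17, adjusted p = 5.51e-07). Meg3 measured 978, 858, 1282 and 1217 CPM at E12.5 and 4042, 4704, 5245 and 4549 CPM at PND0 (2.13 ± 0.13, adjusted p = 2.12e-07). The log2 ratio of Dlk1 to Meg3 was -2.26 ± 0.47, -3.82 ± 0.14, -5.96 ± 0.51 and -6.78 ± 0.18 over the 4 stages (SD, n = 4). At E16.5 the WT libraries of Dlk1 lay in pairs, 34.1 and 34.2 CPM in replicates 1 and 3 and 72.1 and 71.9 CPM in replicates 2 and 4. Dlk1 at E16.5 and PND0 did not differ beyond that spread (adjusted p = 0.32).

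**Figure D2:**
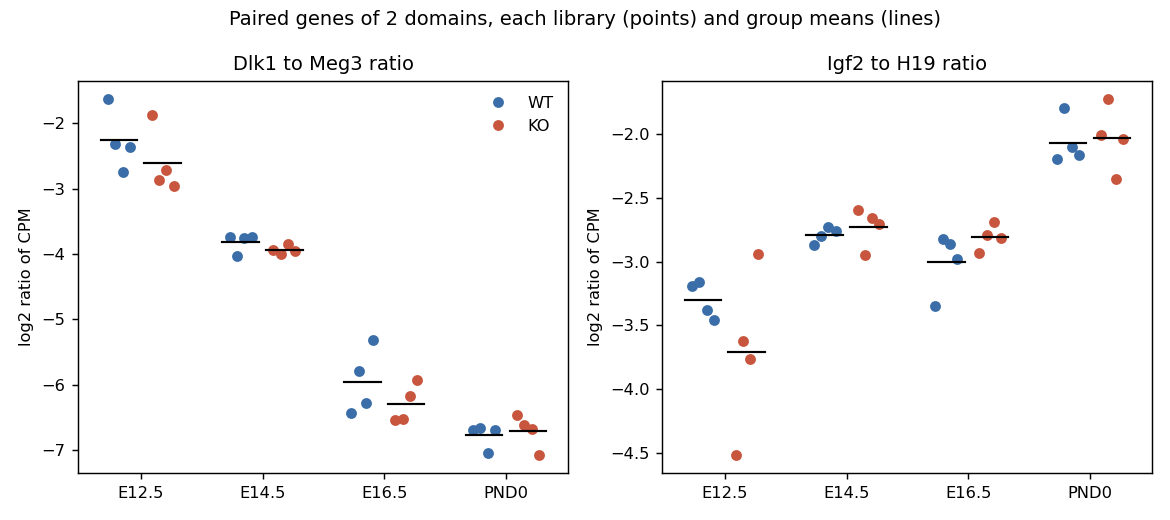
Log2 ratio of CPM (vertical axes) of Dlk1 to Meg3 and of Igf2 to H19 in each library by stage; blue points are WT, red points KO and black lines group means (n = 4). The Dlk1 to Meg3 ratio falls from a WT mean of -2.26 to -6.78, and WT and KO points overlap at every stage in both panels.

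Mest, a protein with an alpha/beta hydrolase fold, had WT means of 333 ± 72.4, 244 ± 9.34, 80.7 ± 12.8 and 64.6 ± 8.90 CPM. Its largest step was from E14.5 to E16.5 (log2 fold change -1.57 ± 0.10, adjusted p = 4.36e-07). Ndn, a MAGE-family protein of neurons, measured 190, 190, 318 and 240 CPM in WT at E12.5 and 387, 421, 456 and 400 CPM at PND0. Ndn rose over the first interval (0.62 ± 0.16, adjusted p = 0.00935) and its later single steps missed the threshold (adjusted p = 0.587 and 0.384). From E14.5 to PND0, where 60.8% of all genes passed, Ndn rose by 0.21 ± 0.06 (adjusted p = 0.0092). That call was lost in the fit of all 32 libraries (0.23, adjusted p = 0.32).

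Per kilobase of exon, the scale on which genes can be compared with each other, H19 had the highest WT mean of the 10 at E12.5 (366 CPM per kb), followed by Mest (84.4) and Grb10 (79.3), and Igf2 the lowest (16.6). At PND0 Meg3 was highest (256 CPM per kb), then Ndn (113) and H19 (53.1), and Igf2 was again lowest (5.47). Exon lengths are unions over annotated transcripts, and the isoforms used in these brains were not measured.

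In KO brains, 1 of the 10 genes differed from WT at 1 stage: Peg3 was lower at PND0. No member passed the test at E12.5 (0.0177% of all genes did), E14.5 (0.527%) or E16.5 (0.0462%), and 1 of 10 did at PND0 (1.44%, with 1.03% lower). Without adjustment, 2, 2, 0 and 5 members had p under 0.05 at the 4 stages, against 4.70%, 8.73%, 11.5% and 18.0% of all genes tested. DESeq2 called 0 members at the first 3 stages and 3 at PND0. Of the genes to which it gave an adjusted p, it called 0.129%, 1.13%, 2.35% and 7.24%. The log2 fold changes were below 0 for 8, 7, 6 and 9 of the 10 genes, with medians of -0.292, -0.0191, -0.0359 and -0.261, while 49.3% to 50.1% of all genes tested lay below 0. Without the 2 E12.5 libraries that stood apart, the E12.5 median was -0.0868.

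**Figure D3:**
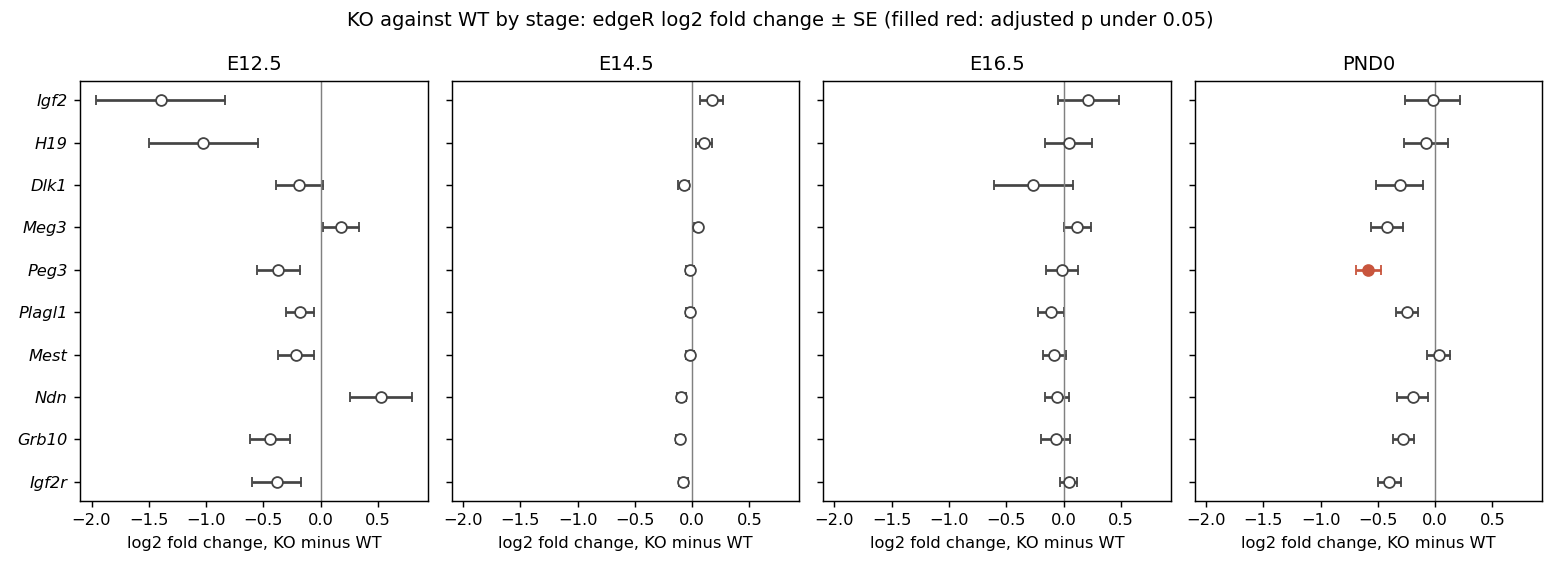
Log2 fold change, KO minus WT (horizontal axes), of each gene at each stage, with bars of 1 SE from edgeR; filled red marks an adjusted p under 0.05. Peg3 at PND0 (-0.58) is the 1 filled point, and the bars are widest for Igf2 and H19 at E12.5.

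Peg3 at PND0 measured 210, 214, 253 and 226 CPM in WT replicates 1 to 4 and 165.3, 164.99, 158.5 and 117.1 CPM in KO replicates 1 to 4. The highest KO library was below the lowest WT library, and KO replicate 4 lay apart from the other 3. The means were 226 ± 19.4 and 151 ± 23.2 CPM (SD, n = 4), a log2 fold change of -0.58 ± 0.11 (SE, adjusted p = 0.0201), so that Peg3 fell by 33.3%. At the 3 embryonic stages its log2 fold changes were -0.37, -0.02 and -0.01 (adjusted p = 0.875, 0.945 and 0.982). The test of whether the KO effect differed between stages gave an adjusted p of 0.273 for Peg3, and the effect averaged over stages was -0.24 ± 0.07 (adjusted p = 0.114). The PND0 call was lost without WT replicate 1 (adjusted p = 0.0505), WT replicate 3 (0.0798) or KO replicate 1 (0.0558), while without KO replicate 4 it was kept (log2 fold change -0.47, adjusted p = 0.0193). It was also lost with offsets for transcript length (-0.42, adjusted p = 0.0798) and with the ribosomal RNA share as a covariate (-0.54, adjusted p = 0.494).

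At PND0 the WT and KO groups of Peg3, Igf2r and Grb10 did not overlap, as was true of 1988 of the 15967 genes that averaged 1 CPM or more. Igf2r measured 73.1, 76.6, 97.3 and 82.9 CPM in WT and 62.9, 67.9, 55.5 and 65.0 CPM in KO. All 4 KO libraries of Igf2r were below all WT libraries, but the difference of -0.40 ± 0.10 missed the threshold (adjusted p = 0.057). Grb10 measured 116, 109, 130 and 114 CPM in WT and 101.1, 104.3, 101.9 and 80.9 CPM in KO (-0.28 ± 0.09, adjusted p = 0.132). The gap between the Grb10 groups was narrow, and KO replicate 4 was again lowest. Meg3 measured 4042, 4704, 5245 and 4549 CPM in WT and 3606, 3623, 4111 and 2536 CPM in KO (-0.42 ± 0.14, adjusted p = 0.154), with KO replicate 3 above the lowest WT library. A fit with no filter on low counts (3.25% of all genes called) and DESeq2 (7.24%) each called Meg3 (adjusted p = 2.92e-05 and 0.0252), Igf2r (0.00424 and 0.0132) and Peg3. With offsets for transcript length Meg3 was at -0.23 (adjusted p = 0.473) and Igf2r at -0.27 (0.166). With the ribosomal RNA covariate the adjusted p was 0.62 for both.

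The other 6 genes had PND0 log2 fold changes between -0.31 (Dlk1) and 0.03 (Mest), with adjusted p from 0.203 to 0.978. Igf2 and H19 were close to WT at birth (-0.02 ± 0.24 and -0.08 ± 0.19). KO replicate 4 had the lowest value of its group for Igf2 (19.5 CPM), H19 (80.1), Dlk1 (18.8), Meg3, Peg3, Ndn (283) and Grb10. At PND0 several other measures differed between genotypes, with overlapping ranges for choroid plexus, blood and ribosomal RNA. The 12 defining brain genes summed to 5424 to 5768 CPM in WT and 5887 to 6537 CPM in KO. The summed level of 10 hindbrain and spinal cord markers was 1.53 to 8.36 CPM in WT and 0.238 to 0.579 CPM in KO. In WT 3 of the 10 were at 0 (Hoxb4, Hoxb6 and Hoxb8). In KO 8 were at 0, these 3 and Hoxa5, Hoxb5, Hoxc4, Hoxc5 and Hoxc8. The 10 choroid plexus markers, none at 0, summed to 324 to 628 CPM in WT and 626 to 988 CPM in KO. The 10 blood markers summed to 197 to 263 CPM in WT, with 1 at 0, and 230 to 2265 CPM in KO, with 2 at 0. The ribosomal RNA gene took 1.80% to 2.79% of counts in WT and 1.16% to 2.09% in KO. The part of these differences in the Peg3, Igf2r, Grb10 and Meg3 values was not tested beyond the covariate fit above.

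At E12.5 the largest differences were in Igf2 and H19, but the groups overlapped. Igf2 measured 197, 82.5, 40.1 and 59.0 CPM in WT and 30.2, 23.6, 19.2 and 72.7 CPM in KO. In KO, 3 libraries were below every WT library and the fourth was above 2 of them (log2 fold change -1.40 ± 0.56, adjusted p = 0.875). H19 measured 1801, 738, 418 and 649 CPM in WT and 690, 290, 261 and 559 CPM in KO (-1.03 ± 0.48, adjusted p = 0.875). Without WT replicate 1 and KO replicate 1 the differences were -0.67 for Igf2 (adjusted p = 0.887) and -0.72 for H19 (0.868). For Grb10, Peg3 and Igf2r they were -0.44, -0.37 and -0.38 with all 8 libraries and -0.28, -0.08 and -0.06 without those 2. Ndn was higher in KO by 0.53 ± 0.27 (adjusted p = 0.875), with 554, 297, 248 and 265 CPM in KO, where KO replicate 1 stood alone. Without that library the difference was 0.17, and without both it was 0.09 (adjusted p = 0.691 and 0.932).

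The Igf2 and H19 levels at E12.5 moved in part with markers of the brain's coverings. The 12 meninges and fibroblast markers, none at 0, summed to 3500, 2307, 1509 and 2063 CPM in WT replicates 1 to 4 and to 2500, 730, 784 and 2854 CPM in KO replicates 1 to 4. KO replicates 2 and 3 had the lowest marker sums and the lowest Igf2 and H19 of the 8 libraries, and WT replicate 1 had the highest of all 3. KO replicate 1, at a marker sum of 2500 CPM, departed from this order for both genes. Its Igf2 (30.2 CPM) was below that of every WT library. Its H19 (690 CPM) was slightly below that of WT replicate 2 (738 CPM at 2307 CPM of markers). KO replicate 4, at 2854 CPM of markers, also departed from the order for both genes. Its H19 (559 CPM) was below that of KO replicate 1 and WT replicates 2 and 4, and its Igf2 (72.7 CPM) below that of WT replicate 2. The part of these tissues in the difference between genotypes was not tested.

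**Figure D4:**
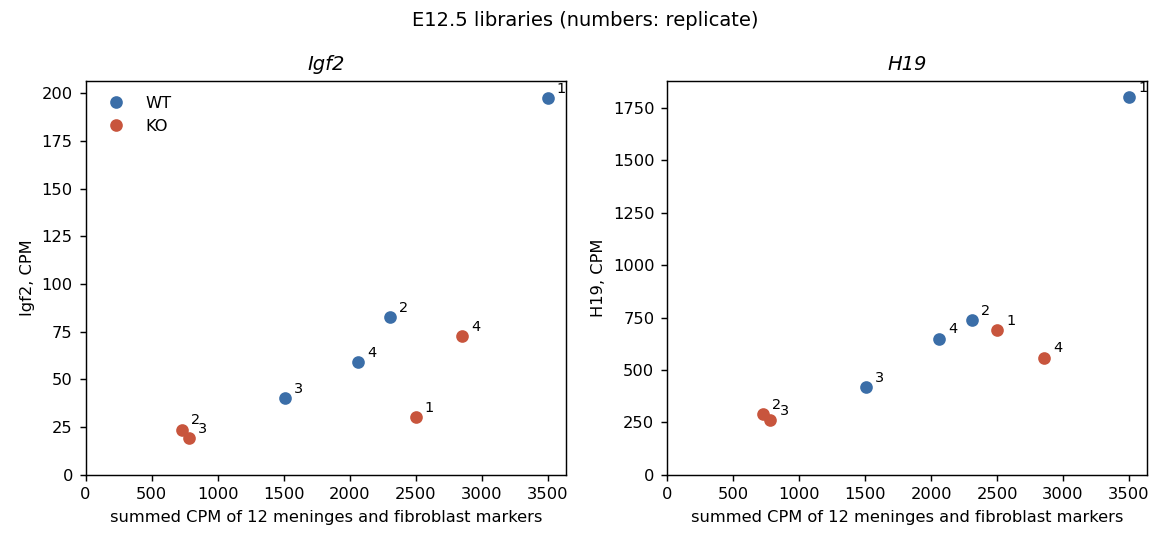
Level of Igf2 (left) and H19 (right) in CPM (vertical axes) against the summed CPM of 12 meninges and fibroblast markers (horizontal axes) in the 8 E12.5 libraries; blue points are WT, red points KO, and numbers give the replicate. WT replicate 1 is at the top right of both panels, at 3500 CPM of markers, and KO replicates 2 and 3 are at the lower left, at 730 and 784 CPM.

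At E14.5 and E16.5 the KO values lay close to WT. The largest E14.5 difference among the genes with p under 0.05 was in Grb10, with 355, 344, 369 and 355 CPM in WT and 320, 310, 341 and 346 CPM in KO (-0.11 ± 0.03, adjusted p = 0.24). The 2 groups of Grb10 overlapped through KO replicate 4 alone. Ndn at E14.5 was also slightly lower (-0.10 ± 0.04, adjusted p = 0.416). At E16.5 the log2 fold changes ran from -0.27 (Dlk1) to 0.22 (Igf2), with adjusted p of at least 0.73.

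Averaged over the 4 stages, 0 of the 10 members passed (0.558% of all genes did), while 4 had an unadjusted p under 0.05 (12.4% of all genes) and DESeq2 called 2 (2.67%). Of the 10 averages, 9 were below 0, with a median of -0.199 against 0.00144 over all genes (-0.111 without the 2 E12.5 libraries that stood apart), and Grb10 was at -0.22 ± 0.06 (adjusted p = 0.11). The test for a KO effect that changes with stage called 0 members (0.0256% of all genes), with 4 at an unadjusted p under 0.05 (13.5%) and 0 by DESeq2 (2.22%). Without the same 2 libraries it called 3.86% of all genes, Peg3 among them (adjusted p = 0.0452).

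No difference between genotypes in the proportion of paired genes passed a test, and the groups overlapped at every stage. The log2 ratio of Igf2 to H19 in KO minus WT was -0.413, 0.0628, 0.197 and 0.036 over the 4 stages (exact two-sided permutation p = 0.286, 0.486, 0.143 and 0.857). For Dlk1 to Meg3 the differences were -0.344, -0.122, -0.335 and 0.0648 (exact p = 0.343, 0.143, 0.286 and 0.6). Adjusted over the 8 tests, the lowest p was 0.549. The smallest p that 4 against 4 libraries allow is 0.0286. The SD of these log2 ratios within groups ran up to 0.645 (KO, Igf2 to H19 at E12.5).

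Variation between libraries of the same group was shared among some members. Deviations of log2 CPM from the group means, over all 32 libraries, correlated at r = 0.862 between Igf2 and H19 (Spearman's rho 0.82, and r = 0.827 without the 2 libraries farthest in Igf2, WT replicate 1 and KO replicate 4 of E12.5). Grb10 followed Igf2 (r = 0.815, rho 0.765, 0.808 without the same 2). With H19, Grb10 gave r = 0.833 (rho 0.82, 0.701 without the 2 farthest in H19, WT replicates 1 and 3 of E12.5). Without the 8 libraries of E12.5, Igf2 and H19 still gave r = 0.874 over 24 libraries. Dlk1 and Peg3 gave r = 0.604 (rho 0.538, 0.461 without the 2 farthest in Dlk1, PND0 KO replicate 4 and E16.5 WT replicate 1). Dlk1 and Meg3 gave r = 0.38 (rho 0.253, 0.215 without the same 2). Without the 8 libraries of E12.5, Dlk1 gave r = 0.858 with Peg3 and 0.681 with Meg3. Of the 45 pairs of members, 15 had r over 0.5 and 12 were below 0. The libraries share depth, dissection and RNA quality, so these values are descriptions.

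For 9 of the 10 members, the 3 genes most like each by this measure are given, sought among 12491 that averaged 5 CPM or more. Nearest to Igf2 were Ptpn14 (r = 0.945), Adamts9 (0.938) and Col6a3 (0.905), the last a collagen of connective tissue. Islr (0.927), Shc1 (0.923) and Fstl1 (0.92) were nearest to H19, and Mrc2 (0.902), Parva (0.879) and Axl (0.879) to Grb10. Nearest to Igf2r were Amotl1 (0.913), Atf7 (0.875) and Flna (0.873), the last an actin crosslinker. The nearest genes to Dlk1 were Smoc1 (0.827), Otp (0.822), a transcription factor of the hypothalamus, and Asb4 (0.795). Those nearest to Meg3 were Snhg11 (0.927), another non-coding RNA, Dzank1 (0.888) and Gsg1l (0.874). Peg3 was closest to Peg10 (0.864), itself an imprinted gene, then Col25a1 (0.855) and Tmem255a (0.837). Mest was closest to Foxo4 (0.826), Six5 (0.777) and Cdk2 (0.768), and Ndn to Cmas (0.912), Slc25a4 (0.884) and BC031181 (0.875). Over the 32 libraries the Spearman coefficients of these genes ran from 0.565 to 0.937, and r without the 2 libraries in which the nearest gene lay farthest from its median ran from 0.644 to 0.928.

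Among 29 tested genes of the IGF and insulin system (ligands, binding proteins and their proteases, receptors, signalling proteins and RNA or chromatin regulators of fetal growth), 4 passed the test in KO at PND0 (3 lower, 1 higher), where 1.03% of all genes were lower and 0.402% higher. Mtor, the kinase that couples nutrients and growth factors to protein synthesis, measured 144.97, 147.2, 161.9 and 142.7 CPM in WT and 99.1, 103, 86.0 and 91.7 CPM in KO. The Mtor groups were far apart (log2 fold change -0.66 ± 0.08, adjusted p = 0.00135). Irs1, the docking protein of the insulin and IGF1 receptors, measured 19.8, 18.7, 33.1 and 23.6 CPM in WT and 8.29, 10.5, 14.1 and 9.59 CPM in KO (-1.17 ± 0.20, adjusted p = 0.0159). Insr, the insulin receptor, measured 92.1, 84.6, 91.6 and 95.5 CPM in WT and 73.9, 73.2, 63.4 and 76.7 CPM in KO (-0.35 ± 0.08, adjusted p = 0.0497). Igfbp2, a secreted protein that binds IGFs, was the 1 that rose: 121, 152, 134 and 142 CPM in WT and 172, 194, 220 and 169 CPM in KO (0.45 ± 0.10, adjusted p = 0.034). The median log2 fold change of the 29 was -0.11, against -0.00058 over all genes. These 4 genes, called on the same libraries, did not overlap between genotypes. That held for 10 of the 29 genes of the system and for 1988 of 15967 genes that averaged 1 CPM or more. With the ribosomal RNA covariate all 4 calls were lost (adjusted p = 0.227 for Mtor, 0.419 for Irs1, 0.636 for Insr and 0.557 for Igfbp2), in a fit that called 2 genes in all. With offsets for transcript length Insr (-0.18, adjusted p = 0.284) and Igfbp2 (0.38, 0.072) missed the threshold, as did Insr with the sex-gene covariate (0.0694) and Igfbp2 in the fit of all 32 libraries (0.0776). Mtor was called without each library in turn (highest adjusted p = 0.00888), Irs1 missed the threshold without WT replicate 3 (0.054) or KO replicate 1 (0.063), and Insr and Igfbp2 missed it in 7 and 6 of the 8 cases.

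**Figure D5:**
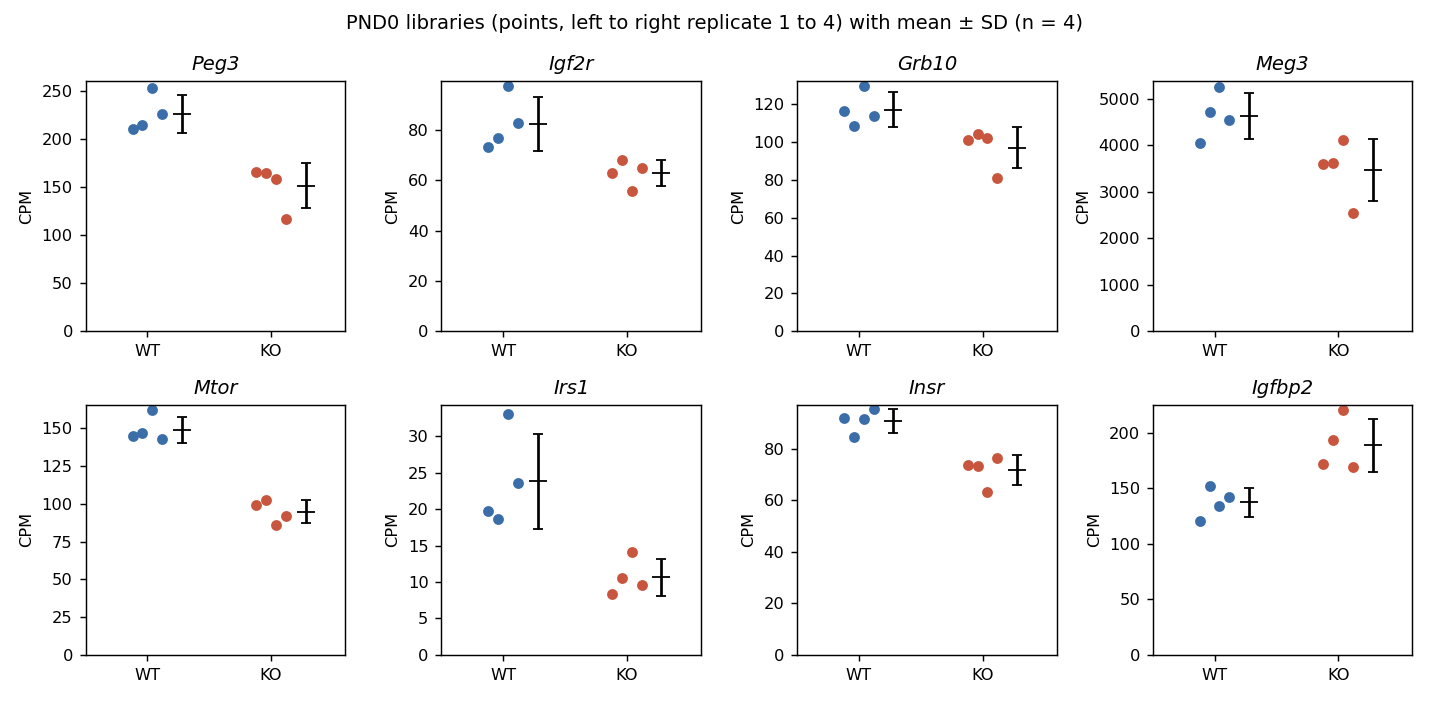
CPM at PND0 (vertical axes, from 0) in WT and KO libraries for 4 imprinted genes (top) and 4 genes of the IGF and insulin system (bottom); points are libraries, bars mean ± SD (n = 4). Peg3, Igf2r, Grb10, Mtor, Irs1 and Insr have all KO points below all WT points, Igfbp2 has them above, and Meg3 overlaps.

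At the other stages and averaged over stages, where 0.0177%, 0.527%, 0.0462% and 0.558% of all genes passed the test, 0 genes of this system did. Those with the smallest p were Igfbp5 (-0.85) and Pappa (-0.61) at E12.5 (adjusted p = 0.875 for both, and -0.47 and -0.39 without the 2 libraries that stood apart), Irs1 at E14.5 (-0.27, adjusted p = 0.243) and Foxo3 at E16.5 (0.27, adjusted p = 0.217). The average for Irs1 was -0.41 ± 0.10 (adjusted p = 0.0558), and it passed without those 2 libraries (-0.35, adjusted p = 0.0155), by DESeq2 (0.00616), with the replicate block (0.0264) and with the ribosomal RNA covariate (0.00849). Of 38 other imprinted genes, 34 or 35 were tested and 0 passed in any KO comparison. From E12.5 to PND0, 0.0177%, 0.527%, 0.0462% and 1.44% of all genes passed. On this list 3, 7, 0 and 13 had an unadjusted p under 0.05 at these stages, against 4.70%, 8.73%, 11.5% and 18.0% of all genes. The 2 with the smallest p at PND0 were both lower in KO. Kcnk9, a potassium channel gene, measured 61.3, 62.3, 88.8 and 60.3 CPM in WT and 47.1, 50.3, 47.5 and 33.8 CPM in KO (-0.61 ± 0.15, adjusted p = 0.0565). Peg10, a gene derived from a retrotransposon, measured 152.8, 165.3, 189.1 and 193.3 CPM in WT and 110, 126, 103 and 66.4 CPM in KO (-0.79 ± 0.18, adjusted p = 0.0602). Neither group pair overlapped, as in 6 of the 35 tested on this list and 1988 of 15967 genes that averaged 1 CPM or more. KO replicate 4 was lowest in both. DESeq2, the fit with no filter and the fit of all 32 libraries called both genes (adjusted p of at most 0.0384). Over all genes those fits called 921, 1091 and 1205, beside 250 in the main fit. The highest adjusted p over the alternatives was 0.557 for Kcnk9 and 0.598 for Peg10. The 8 or 9 tested genes of the Kcnq1ot1 domain gave 0 calls as well, beside the same shares of all genes passing. In this domain 0, 2, 1 and 0 had an unadjusted p under 0.05, beside 4.70%, 8.73%, 11.5% and 18.0% of all genes.

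In the WT course from E12.5 to PND0, the other imprinted genes moved both ways: 14 of 35 rose and 9 fell, where 34.5% of all genes rose and 36.4% fell, with a median log2 fold change of 0.129 beside -1.71 for the 10 members. Rasgrf1, a Ras exchange factor of neurons, rose from 1.73 ± 0.86 to 44.9 ± 4.59 CPM (4.75 ± 0.25, adjusted p = 7.58e-08). Slc22a2 rose at a low level, from 0.185 ± 0.19 to 1.27 ± 0.44 CPM. Peg12 fell from 49.1 ± 7.85 to 3.79 ± 0.26 CPM (-3.66 ± 0.14, adjusted p = 1.56e-08), and Airn, the non-coding RNA that runs opposite to Igf2r, from 4.34 ± 2.75 to 1.22 ± 0.18 CPM (-1.78 ± 0.40, adjusted p = 0.00225). Of the IGF and insulin system, 10 of 31 rose and 14 fell in the same comparison. Hmga2, a chromatin protein of fetal growth, fell from 144 ± 78.7 to 1.47 ± 0.61 CPM (-6.56 ± 0.48, adjusted p = 6.22e-07), and Lin28a, a repressor of let-7 microRNAs, by 2.89 (adjusted p = 3.49e-05). Grb14, a relative of Grb10, rose by 2.07 ± 0.14 (adjusted p = 4.18e-07), the opposite direction to Grb10, and Igfbp6 by 1.84 ± 0.42 (adjusted p = 0.0025). In the Kcnq1ot1 domain 4 of 9 rose and 3 fell, beside 34.5% and 36.4% of all genes, among them Tnfrsf23 (2.31), Osbpl5 (0.89), Cdkn1c (-1.94), an inhibitor of the cell cycle, and Tssc4 (-1.27).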

How the data were processed

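RNA of 32 whole brains was sequenced after polyA enrichment as paired reads of 150 bp, per the labels' protocols. The submitters' processing notes name HISAT2, SAMtools, featureCounts, DESeq2 and the build mm10, with no versions or settings. The authors deposited 1 table of raw counts per gene symbol for each stage. CPM values (counts relative to a library's total) and all tests were computed here from those deposited counts, with TMM scaling over the 32 libraries for the printed CPM and within a fit for the tests. Log2 CPM used a prior count of 2.

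Each comparison was fitted on all genes with edgeR 4.0.16 in R 4.3.3 (filterByExpr with a minimum count of 10 and a minimum total of 15, robust quasi-likelihood F test), on the 8 libraries of a stage, on the 8 WT libraries of 2 stages, or on all 32 for the averaged effect and the test across stages. Genes with a Benjamini-Hochberg adjusted p under 0.05 within a comparison were called. The SE is the log2 fold change divided by the square root of F. Scripts were tested on simulated data. Ratios were compared with exact two-sided permutation tests. Positions and exon lengths come from the GENCODE M21 annotation (GRCm38), and promoters from RefSeq, which matched 9 of the 10 members. A count of 0 allows up to 3 counts, or 0.106 to 0.216 CPM by library, for counting error only.

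The members and lists were chosen with earlier results of these data known. In the text, all members are named, and from each list the genes past the threshold or, failing that, the 2 with the smallest p, with the 2 largest changes in each direction for the WT course. Alternatives were RLE scaling, no filter, DESeq2 1.42.0, a replicate block, a sex-gene covariate, a fit of all 32 libraries, transcript-length offsets and leaving out each library. A ribosomal RNA covariate and leaving out the 2 E12.5 libraries together were chosen after seeing the data. The genes nearest to Plagl1 are not reported here.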

Additional observations from a re-analysis of the deposited data

Results flagged for a closer look

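Over 96 groups of 4 libraries (10 genes and 2 log2 ratios in 8 groups), 9 had a library far from the other 3 by Dixon's criterion (gap over range above 0.829), where chance gives about 1 in 20.

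In WT at E14.5, replicate 2 was lowest for Dlk1 at 121.8 CPM (others 138.2 to 139.5) and highest for Meg3 at 1994 CPM (others 1856 to 1869). The log2 ratio of Dlk1 to Meg3 was therefore lowest there too, at -4.033 (others -3.748 to -3.741). In WT at PND0, replicate 3 had the lowest such ratio, -7.045 (others -6.697 to -6.67).

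At E12.5, Peg3 was highest in WT replicate 1 at 647.9 CPM (others 411 to 432.6) and Ndn in KO replicate 1 at 554.5 CPM (others 248.2 to 296.6). These are the E12.5 libraries with the highest muscle, cartilage and meninges markers and with the highest ribosomal RNA share. In KO at PND0, replicate 4 was lowest for Peg3 at 117.1 CPM (others 158.5 to 165.3) and for Grb10 at 80.89 CPM (others 101.1 to 104.3). Ndn in KO at E14.5 was highest in replicate 2 at 348 CPM, but within 10 CPM of the others (338.3 to 339.9).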

How the results depend on the processing

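Of 649 alternative values for KO differences of single members by stage, 638 kept their side of the threshold, 5 lost a call and 6 gained one, and 0 called values changed direction. Uncalled values changed sign in 26. For the averaged effect 68 of 70 kept their side (2 gained a call, 2 uncalled sign changes), and for the WT course 805 of 840 (26 lost, 9 gained, 7 uncalled sign changes). The number of members called at E12.5 and E16.5 was 0 under every alternative. At E14.5 it was 1 with the ribosomal RNA covariate (Grb10, adjusted p = 0.00762), in a fit that called 76 genes in all. Without single libraries it was 0 to 1 there (Ndn without WT replicate 2, adjusted p = 0.0117, with 155 genes called in all). At PND0 it was 3 with no filter, 3 with DESeq2, 0 with length offsets, 0 with the ribosomal RNA covariate and 0 to 1 without single libraries. For the averaged effect DESeq2 gave 2 (Peg3, adjusted p = 0.0351, and Grb10, 0.0357), and for the test across stages leaving out both E12.5 libraries gave 1. The causes were not tested.

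Over all genes, the PND0 count of 250 became 1091 with no filter, 921 with DESeq2, 1205 with all 32 libraries in 1 fit, 69 with length offsets, 2 with the ribosomal RNA covariate and 35 to 263 without single libraries (35 without WT replicate 3). The E12.5 count (3) ran from 1 to 52, the E14.5 count (94) from 4 to 155, the E16.5 count (8) from 3 to 233, the count for the average (109) from 72 to 355 and that across stages (5) from 0 to 770.

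The log2 ratio of Igf2 to H19 at E12.5, KO minus WT, ran from -0.669 to -0.145 without single libraries. With a replicate block the members called numbered 0, 0, 0 and 1 from E12.5 to PND0 (Peg3, -0.59, adjusted p = 0.0163). Over all genes the same fits called 6, 131, 5 and 356. Deviations of same-numbered WT and KO libraries correlated with either sign (r from -0.383 to 0.316 over 16 pairs). These values cannot tell whether the numbers mark litters, which the labels do not give.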

Other observations

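Among the 10 genes, 4 host microRNAs in RefSeq (GRCm38.p6): Igf2 (miR-483), H19 (miR-675), Meg3 (miR-770 and miR-1906) and Mest (miR-335). Their 9 mature forms carry 9 different seeds (bases 2 to 8), so no seed is shared between hosts. The mature RNAs were not measured by these libraries.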
